A study of Mus musculus with 17 samples.

Results

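Major histocompatibility complex (MHC) class II molecules display peptides from endocytosed proteins to CD4 T cells, and 7 genes of that pathway were followed here across progenitor-derived and primary cells of the mouse liver. They are H2-Aa, H2-Ab1, H2-Eb1, H2-DMa, H2-DMb1, Cd74 and Ciita, taken as every probe whose gene name on the array is one of these. The 7 are members of a set of 31588 gene names on the array, and all 7 were among the 25977 genes that passed a filter on dim probes (well above background on at least 2 of 17 arrays). H2-Ab1 had 2 probes and the others 1 each, so 8 probes were read. The genes were chosen by their measured values on these same arrays. Their levels and differences are therefore given as a description, with no test.

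All animals carried Foxl1-CRE, a Cre recombinase under the control of the Foxl1 gene, together with the RosaYFP reporter, which Cre switches on, and the offspring used were 6 to 10 weeks old. The 5 groups were undifferentiated adult hepatic progenitor cells (4 arrays), progenitor cells differentiated in vitro into hepatocytes (4 arrays) or into cholangiocytes (3 arrays), primary hepatocytes (4 arrays) and primary cholangiocytes (2 arrays, replicates 3 and 4). Every group carried both alleles, and the comparison named in the design is of in vitro differentiated with primary cells. The labels do not say whether the arrays of a group came from separate animals or cultures, so p-values measure the spread between these samples, which may be technical.

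On the surface of a cell, class II molecules are pairs of an alpha and a beta chain (H2-Aa with H2-Ab1 in the I-A molecule, while H2-Eb1 is the beta chain of I-E). Cd74, the invariant chain, fills the groove and guides the pair to the endosome, where H2-DMa and H2-DMb1 form the DM molecule that swaps the remnant of Cd74 for a peptide. Ciita is the transactivator that turns these genes on without binding DNA itself: it docks on the factors that hold the X and Y elements of their promoters, and interferon gamma induces it, with Irf1 among the factors involved. Dendritic cells, B cells and macrophages, Kupffer cells of the liver included, carry class II as a rule, and epithelial cells mostly after exposure to interferon gamma.

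RefSeq promoter windows (GRCm38.p6, 250 bases before to 50 after each gene's start) were at hand for 4 of the 7 genes, and they are shown because the X and Y elements are the shared feature through which the genes are known to be turned on together. The letters searched were GNAAC (for X, where N is any base) and GATTGG (for Y, the reversed CCAAT box), with starts 20 to 45 bases apart, and these letters were settled on after the sequences had been seen. The class II genes were searched on the gene's strand only, and the shares over all windows count either strand. The stretch from 6 bases before the first match to 6 after the second is printed 5′ to 3′ on the gene's strand, with both matches in capitals.
H2-Aa, chr17:34287861-34287910, minus strand: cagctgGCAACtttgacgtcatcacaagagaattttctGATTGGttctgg
H2-Eb1, chr17:34305770-34305818, plus strand: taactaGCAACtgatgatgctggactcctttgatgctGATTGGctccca
H2-DMb1, chr17:34153091-34153140, plus strand: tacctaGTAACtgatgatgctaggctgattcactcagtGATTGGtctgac
The starts lay 32, 31 and 32 bases apart, and the GATTGG match began 49, 60 and 62 bases before the gene's start. H2-DMa had 2 windows and no match to the pair of letters, and no window was at hand for H2-Ab1, Cd74 and Ciita. Of 5 further class II chain genes, 4 had a window and 3 a match.
H2-Eb2, chr17:34325537-34325585, plus strand: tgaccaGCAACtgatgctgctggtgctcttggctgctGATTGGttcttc
H2-Oa, chr17:34092297-34092346, plus strand: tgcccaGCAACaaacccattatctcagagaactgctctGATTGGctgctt
H2-Ob, chr17:34238812-34238858, plus strand: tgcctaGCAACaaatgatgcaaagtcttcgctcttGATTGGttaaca
Over all 32851 windows of 300 bases, on either strand, 84.8% held GNAAC, 16.1% held GATTGG, and 475 windows (1.45%) held the pair in this order and spacing. A match is a description of these letters and not a measured site.

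The probes themselves set what could be read. The 2 probes of H2-Ab1 overlap by 51 bases with 1 mismatch, C21T, counted from the 5′ end of the 30 bases shown, where the substituted base is in capitals. The first line is the probe that stands for the gene, being the one with the higher mean.
H2-Ab1, first probe: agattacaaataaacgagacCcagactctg
H2-Ab1, other probe: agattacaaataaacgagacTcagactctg
The array's own annotation places them on chromosome 17 from 34406296 to 34406363, in coordinates whose build is not given in the sources used here and which therefore cannot be set beside the promoter coordinates above. The last 30 of the 60 bases of the only probe of Ciita are a tandem repeat with a period of 5 bases, which limits what the Ciita values can say. Only 5 of 39294 probes (0.0127%) held a stretch of that period at least as long.

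Levels below are log2 values relative to the 75th percentile of each array, so a level of 0 equals that percentile and a difference of 1 is a 2-fold change. Levels of different probes were not compared with each other, apart from the sums over lists given below, which follow the brightest probes of a list. The 75th percentile itself was dimmer on the 4 primary hepatocyte arrays (547 to 986 intensity units) than on the other 13 (1747 to 2867). Probes near background therefore sit higher on this scale in primary hepatocytes: H2-Ea-ps, which was well above background on no array, had a level of -7.95 ± 0.39 (SD, n = 4) there and -9.26 in undifferentiated cells. The labelled cell types were checked against their markers. Alb was 9.89 ± 0.37 in primary hepatocytes, but ranged from -4.76 to 7.62 in differentiated hepatocytes and from -8.74 to 6.00 in undifferentiated cells. Krt19, a keratin of bile duct cells, was 6.47 in undifferentiated cells, 4.49 in differentiated hepatocytes, 6.52 in differentiated cholangiocytes and 6.98 in primary cholangiocytes, against -7.02 in primary hepatocytes. Epcam, which marks bile duct epithelium, was 2.63 in primary cholangiocytes and between -6.77 and -5.48 on average in the other groups.

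H2-Ab1, the beta chain of I-A, had the widest span of group means. Its levels in undifferentiated cells were -9.01, -7.09, -4.73 and -9.39 in replicates 1 to 4, of which replicates 1 and 4 were not well above background. In differentiated hepatocytes they were -1.14, -2.92, -2.84 and -2.37. Differentiated cholangiocytes gave -8.12 (not well above background), -6.57 and -5.84. Every differentiated hepatocyte array thus lay above every undifferentiated and every differentiated cholangiocyte array. Primary hepatocytes were highest, at -1.26, 0.47, -0.15 and -0.71, and the primary cholangiocyte arrays were at -2.09 and -2.68. The group means fell in the order primary hepatocytes (-0.41 ± 0.74, SD, n = 4), differentiated hepatocytes (-2.32 ± 0.82, n = 4), primary cholangiocytes (-2.38 ± 0.42, n = 2), differentiated cholangiocytes (-6.84 ± 1.17, n = 3) and undifferentiated cells (-7.56 ± 2.14, n = 4). Primary and differentiated hepatocytes overlapped, the primary cholangiocytes lay within the range of differentiated hepatocytes, and the range of differentiated cholangiocytes lay within that of undifferentiated cells. The other probe gave group means of -0.50, -2.44, -2.74, -7.57 and -8.14 in the same order, so both probes put the groups alike.

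H2-Eb1, the beta chain of I-E, was measurable in undifferentiated cells, at -6.10, -4.44, -4.26 and -6.82. Differentiated hepatocytes gave -1.20, -3.22, -4.26 and -3.15, and the lowest of them and the highest undifferentiated array were separated only in the third decimal. Differentiated cholangiocytes were at -7.28 (not well above background), -5.35 and -5.28. These 3 arrays lay below all differentiated hepatocyte arrays and within the spread of the undifferentiated cells or below it. Primary hepatocytes were at -1.75, 0.03, -0.60 and -1.04, overlapping differentiated hepatocytes through replicate 1 of the latter. The primary cholangiocyte arrays disagreed, at -7.35 (not well above background) and -3.20.

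H2-Aa, the alpha chain of I-A, was dim outside primary hepatocytes. Undifferentiated cells gave -7.26, -8.41, -8.17 and -9.28, none well above background, and differentiated hepatocytes gave -6.77, -6.01, -6.85 and -9.13, of which replicates 2 and 3 were well above it. Differentiated cholangiocytes gave -8.73, -6.79 and -6.06, with the last alone well above background. Primary hepatocytes stood above all other arrays at -4.48, -3.59, -3.92 and -4.34. Against the lowest measurable signal of the undifferentiated arrays this was at least 10.5-fold higher. The primary cholangiocytes gave -8.65 (not well above background) and -6.21.

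Cd74, the invariant chain, was at -6.20, -5.93, -5.70 and -5.18 in undifferentiated cells. Differentiated hepatocytes gave -1.55, -3.39, -5.01 and -4.22, the widest spread of any group for this gene, and all 4 lay above the undifferentiated cells. Differentiated cholangiocytes were at -5.03, -4.22 and -5.67, overlapping both. Primary hepatocytes were at -2.12, -0.40, -1.56 and -2.13, and the primary cholangiocytes at -4.48 and -4.71. In order, the means were -1.55 ± 0.81 in primary hepatocytes, -3.54 ± 1.48 in differentiated hepatocytes, -4.60 ± 0.16 in primary cholangiocytes, -4.97 ± 0.73 in differentiated cholangiocytes and -5.75 ± 0.43 in undifferentiated cells. Primary and differentiated hepatocytes overlapped only through replicate 1 of the latter, which also had the highest H2-Ab1 and H2-Eb1 of its group.

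The 2 DM genes did not share this order. H2-DMa was at -6.08, -5.06, -4.52 and -5.32 in undifferentiated cells and at -4.03, -3.87, -5.14 and -3.82 in differentiated hepatocytes. Differentiated cholangiocytes gave -5.53, -4.71 and -4.40, and primary hepatocytes -4.30, -4.59, -5.36 and -4.37. These 4 groups overlapped one another, and the primary cholangiocytes, at -3.61 and -1.40, were the only group above all others. H2-DMb1 was at -5.31, -3.10, -4.70 and -5.47 in undifferentiated cells, at -1.40, -2.64, -3.59 and -3.23 in differentiated hepatocytes and at -5.01, -4.83 and -3.73 in differentiated cholangiocytes. Primary hepatocytes gave -5.23, -3.50, -3.69 and -4.83. The primary cholangiocyte arrays were the lowest and the highest of all 17, at -9.42 (not well above background) and 1.43, so their mean has no use as a level.

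Ciita, the transactivator, had the narrowest range over the 17 arrays. It was at -5.64, -6.93, -6.01 and -7.05 (the last not well above background) in undifferentiated cells, at -5.65, -6.61, -5.82 and -6.13 in differentiated hepatocytes and at -6.38, -6.21 and -6.81 in differentiated cholangiocytes. The 3 groups overlapped. Primary hepatocytes were at -5.54, -5.39, -5.31 and -4.94, all above the rest, and the primary cholangiocytes at -6.98 (not well above background) and -6.72. The gap of 1.11 ± 0.31 (SE) between primary hepatocytes and undifferentiated cells is of the size of the gap between -9.26 and -7.95 at the background probe H2-Ea-ps on the same arrays, and quantile normalization reduced it to 0.40.

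**Figure D1:**
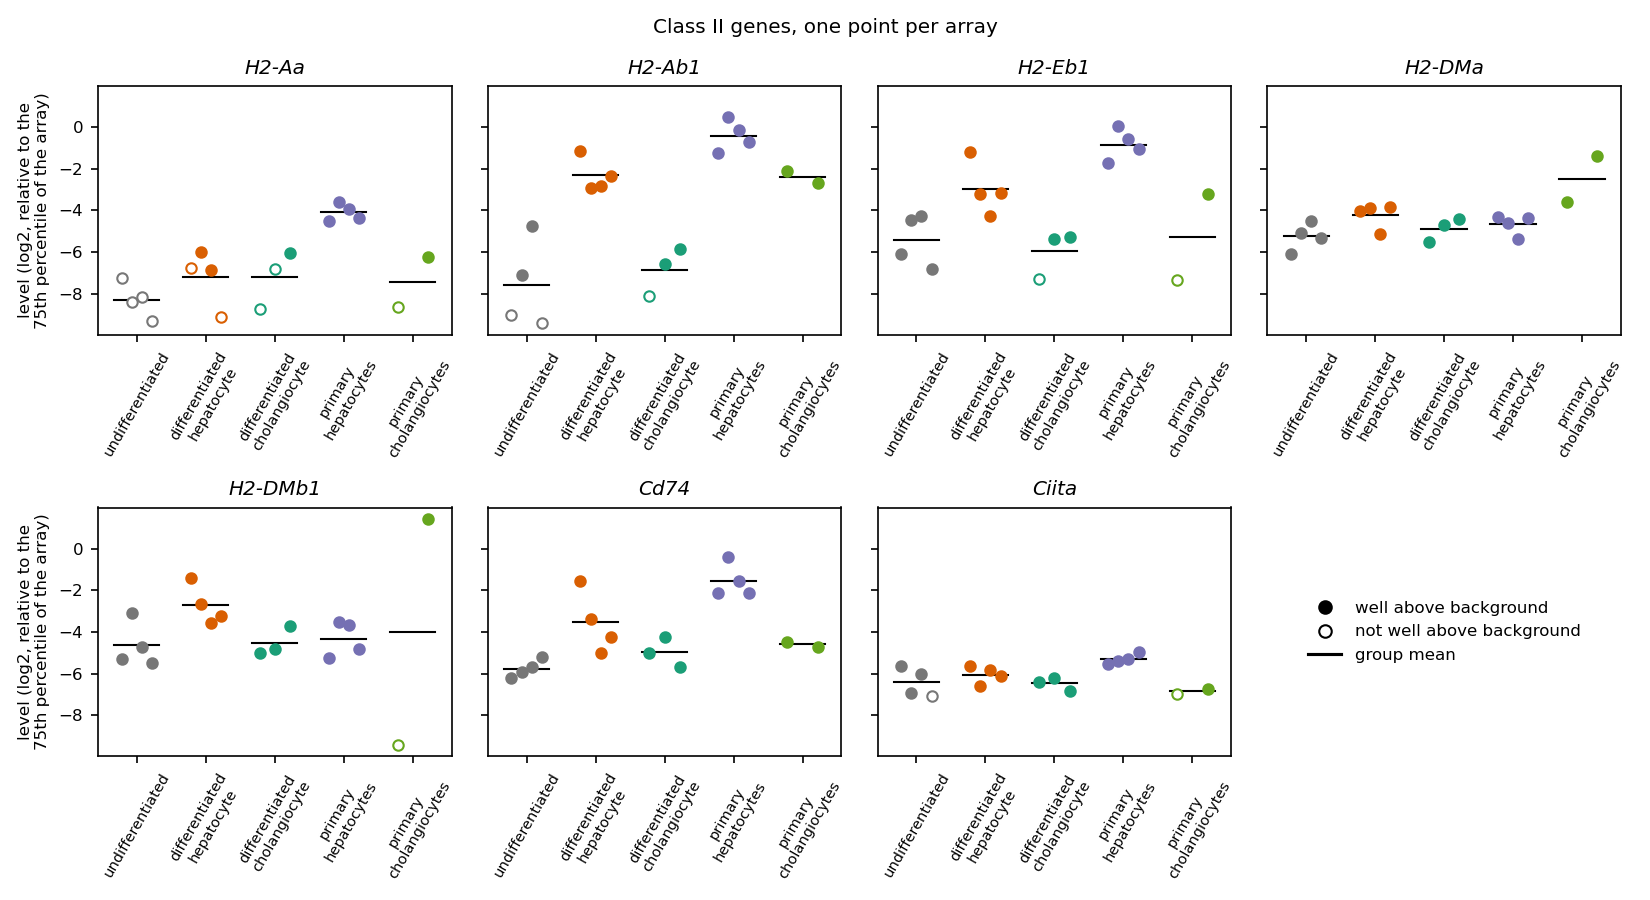
Level of each class II gene (log2 of the signal minus its array's 75th percentile, y axis) on each of the 17 arrays by group; filled points are well above background, open points are not, and lines are group means. H2-Ab1, H2-Eb1 and Cd74 are higher in differentiated and primary hepatocytes than in undifferentiated cells, while Ciita stays between -7.05 and -4.94 throughout.

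In differentiated hepatocytes the beta chains H2-Ab1 and H2-Eb1 and the invariant chain Cd74 were higher than in undifferentiated cells, while the alpha chain H2-Aa overlapped. The fitted differences from undifferentiated cells were 5.24 ± 0.86 (SE) for H2-Ab1, 2.45 ± 0.91 for H2-Eb1 and 2.21 ± 0.61 for Cd74 (4 arrays each). These 3 of the 7 genes had arrays that did not overlap, in a comparison in which 9.57% of all genes were higher without overlap, and nothing is read from that count because the genes were chosen on it. H2-DMb1 (1.93 ± 1.57), H2-Aa (1.09 ± 0.74, not well above background on any undifferentiated array), H2-DMa (1.03 ± 0.48) and Ciita (0.35 ± 0.31) overlapped. The median over the 7 was 1.93, beside 0.07 over all genes. Normexp background correction with an offset of 50 compressed these dim signals, to 2.03 for H2-Ab1, 1.15 for H2-Eb1 and 1.19 for Cd74, with the same sign. On the 3 slides that held both groups, 1 array of each, the H2-Ab1 difference was 4.17, 6.64 and 3.59.

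The arrays of differentiated cholangiocytes and undifferentiated cells overlapped for all 7 genes, so 0 of 7 were higher without overlap, against 8.75% of all genes. The differences were 1.09 ± 0.79 for H2-Aa, 0.78 ± 0.66 for Cd74, 0.71 ± 0.93 for H2-Ab1, 0.36 ± 0.52 for H2-DMa, 0.12 ± 1.70 for H2-DMb1, -0.06 ± 0.33 for Ciita and -0.56 ± 0.98 for H2-Eb1. These errors leave out that same-numbered arrays of the 2 groups deviated together over all genes. Arrays of unlike number were not compared, so whether the numbers pair these samples is not settled. Within the 3 same-numbered pairs, replicates 1 to 3, H2-Eb1 was lower in differentiated cholangiocytes by differences of -1.18, -0.91 and -1.01. H2-DMa differed by 0.55, 0.34 and 0.13 and Cd74 by 1.17, 1.71 and 0.02. The other 4 genes had both signs. The share of all genes with a single sign in all 3 pairs was not computed, so nothing is read from these signs. Against differentiated cholangiocytes, differentiated hepatocytes were higher without overlap for 3 of 7 genes, H2-Ab1 (4.52 ± 0.93), H2-Eb1 (3.01 ± 0.98) and H2-DMb1 (1.81 ± 1.70), where 11% of all genes were. Cd74 differed by 1.43 ± 0.66, H2-DMa by 0.67 ± 0.52, Ciita by 0.42 ± 0.33 and H2-Aa by 0.00 ± 0.79, all with overlap.

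Primary hepatocytes had the highest levels of 5 of the 7 genes. Relative to undifferentiated cells H2-Ab1 was higher by 7.14 ± 0.86, H2-Eb1 by 4.57 ± 0.91, Cd74 by 4.20 ± 0.61, H2-Aa by 4.19 ± 0.74 and Ciita by 1.11 ± 0.31, all 5 without overlap in a comparison where 33.8% of all genes were. H2-DMa (0.59 ± 0.48) and H2-DMb1 (0.33 ± 1.57) overlapped, and quantile normalization turned H2-DMb1 to -0.23. Normexp correction gave 3.67 for H2-Ab1, 2.89 for H2-Eb1, 2.72 for Cd74 and 1.52 for H2-Aa.

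Differentiated hepatocytes lay below primary hepatocytes without overlap for H2-Aa (-3.11 ± 0.74) and Ciita (-0.76 ± 0.31), 2 of 7 genes, beside 30.8% of all genes. H2-Eb1 (-2.12 ± 0.91), Cd74 (-1.99 ± 0.61) and H2-Ab1 (-1.91 ± 0.86) were lower on average with overlap. H2-DMa (0.44 ± 0.48) and H2-DMb1 (1.60 ± 1.57) had differences above 0.

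On the cholangiocyte side only 2 primary arrays were available. They lay close together for H2-Ab1, Cd74 and Ciita and far apart for H2-Aa, H2-Eb1, H2-DMa and H2-DMb1. Differentiated cholangiocytes were below primary ones without overlap for H2-Ab1 (-4.46 ± 1.11) and H2-DMa (-2.38 ± 0.63), 2 of 7 genes, beside 16% of all genes. The differences for H2-Eb1 (-0.69 ± 1.17) and H2-DMb1 (-0.53 ± 2.03) rested on a single array. Without primary cholangiocyte replicate 3 they were -2.77 and -5.95, and without replicate 4 they were 1.39 and 4.89. H2-DMa was -3.48 without replicate 3 and -1.27 without replicate 4. H2-Aa differed by 0.23 ± 0.95, and by -0.99 without replicate 3 and 1.45 without replicate 4. Cd74 differed by -0.38 ± 0.79 (-0.75 to -0.03 when any 1 array was left out) and Ciita by 0.38 ± 0.40 (0.25 to 0.55).

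Between the 2 primary cell types, hepatocytes were higher without overlap for 5 of 7 genes, where 34.8% of all genes were: H2-Eb1 (4.44 ± 1.11), H2-Aa (3.34 ± 0.90), Cd74 (3.05 ± 0.75), H2-Ab1 (1.97 ± 1.05) and Ciita (1.56 ± 0.38). Only H2-DMa was lower without overlap (-2.15 ± 0.59), beside 25.5% of all genes, and H2-DMb1 overlapped (-0.32 ± 1.92). The H2-Eb1 gap was 2.36 without primary cholangiocyte replicate 3 and 6.51 without replicate 4, the H2-Aa gap 2.12 and 4.56, and the H2-DMa gap -3.26 and -1.04. Primary cholangiocytes were above undifferentiated cells without overlap for H2-Ab1 (5.17 ± 1.05), H2-DMa (2.74 ± 0.59) and Cd74 (1.15 ± 0.75), 3 of 7 genes, beside 16.2% of all genes. H2-DMa was 3.85 without replicate 3 and 1.63 without replicate 4. These comparisons share control arrays, so their values stand side by side and were not correlated.

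**Figure D2:**
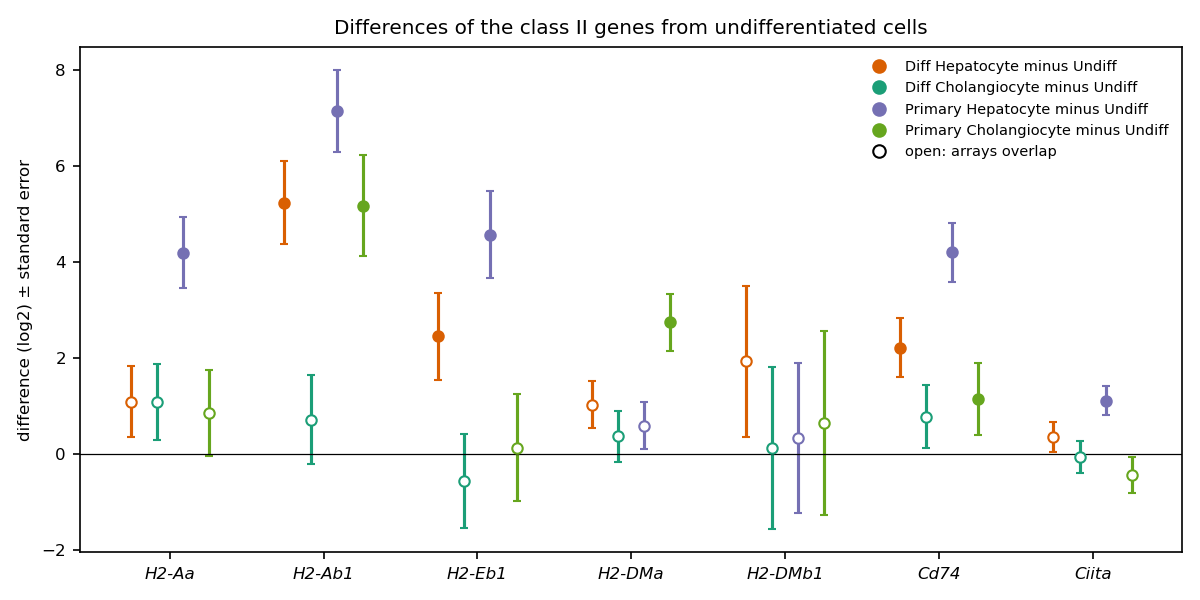
Fitted difference (log2, y axis) of each class II gene from undifferentiated cells in the 4 other groups, with its standard error as the bar; filled points have arrays that do not overlap. Primary hepatocytes (7.14) and differentiated hepatocytes (5.24) are furthest from 0 at H2-Ab1, and differentiated cholangiocytes overlap undifferentiated cells for all 7 genes.

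Over the 17 arrays the genes varied to a different degree with one another. The Pearson correlation of each gene with the mean of the other 6 (each centred and scaled) was 0.926 for H2-Eb1, 0.820 for H2-Ab1, 0.773 for Cd74, 0.742 for H2-Aa, 0.526 for Ciita, 0.344 for H2-DMb1 and 0.240 for H2-DMa. The points share arrays and group means, so these values describe the groups as much as the genes. Outside the list, the 8 genes most like the mean of the 7 over the 17 arrays were Extl1 (r = 0.939), Ube2l6 (0.921), Slc30a1 (0.918), Vmn1r65 (0.914), Gbp10 (0.914), Hamp (0.905), Ablim3 (0.896) and Gm10775 (0.895). Ube2l6 is the conjugating enzyme of the interferon-induced modifier ISG15, and Gbp10 belongs to the interferon-induced guanylate-binding proteins. Ube2l6 had mean levels of -2.18 in undifferentiated cells, -0.19 in differentiated hepatocytes, -1.87 in differentiated cholangiocytes, 2.25 in primary hepatocytes and -0.04 in primary cholangiocytes. Gbp10 had -4.97, -3.30, -4.35, -2.08 and -4.21 in the same order. Hamp, the liver hormone hepcidin, had -8.21, 0.06, -8.68, 6.91 and -2.42.

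The other genes of the pathway were taken from a list of 35 that holds none of the 7, of which 33 were measurable (H2-Ea-ps and H2-DMb2 were not). In differentiated hepatocytes 8 of the 33 were higher and 3 lower than in undifferentiated cells by limma with Benjamini-Hochberg adjustment over all genes, where 7.62% of all genes were higher and 7.7% lower. The genes between interferon gamma and Ciita supplied most of them, with 5 of 9 higher and 2 lower. Socs1, the feedback inhibitor of the Jak kinases, rose by 2.88 ± 0.45 (adjusted p = 0.00089). Irf1, which binds the Ciita promoter, rose by 1.06 ± 0.27 (adjusted p = 0.017). Both chains of the interferon gamma receptor were lower, Ifngr1 by -0.69 ± 0.19 (adjusted p = 0.024) and Ifngr2 by -0.69 ± 0.20 (adjusted p = 0.033).

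Of the 7 factors that hold Ciita on the promoters (Rfx5, Rfxap, Rfxank, Nfya, Nfyb, Nfyc and Creb1) 0 passed in either direction in limma and 1 had an unadjusted p under 0.05. Nfyb was nearest, at 0.56 ± 0.20 (adjusted p = 0.076). These results are for 1 probe per gene. The other probe of Creb1 was higher without overlap, at -3.28 ± 0.26 (SD) in differentiated hepatocytes against -5.14 ± 0.37 in undifferentiated cells, and was not tested on its own. None of the 3 measurable further chains (H2-Eb2, H2-Oa and H2-Ob) passed in limma either, with 0 at an unadjusted p under 0.05. H2-Eb2 and H2-Oa were well above background on 1 of 4 differentiated hepatocyte arrays each, and H2-Ob, at -4.77 ± 0.37, was near its level of -4.79 ± 0.80 in undifferentiated cells. Of 6 genes of endosomal processing, 2 were higher and 0 lower. Ctss, the cathepsin that trims Cd74 in professional antigen-presenting cells, was well above background on 1 of 4 differentiated hepatocyte arrays and on none of the undifferentiated ones. Ifi30, the endosomal thiol reductase, was at -1.21 ± 0.58 (adjusted p = 0.20) and did not pass. Among 6 co-signals to T cells, Icosl, the ligand of the co-stimulator ICOS (well above background on 1 of 4 undifferentiated arrays), rose by 3.99 ± 0.65 (adjusted p = 0.0012), and Pdcd1lg2, a ligand of the inhibitory receptor PD-1, fell by 2.06 ± 0.61 on the log2 scale (adjusted p = 0.034).

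Among these 11 genes, Socs1 and Icosl passed when any 1 array was left out, and Socs1 also passed under all 10 other settings, while Icosl did not under normexp correction. The count of 11 was 4 without undifferentiated replicate 3, 5 without differentiated hepatocyte replicate 1 or 3, 6 without its replicate 2, and 7 without its replicate 4 or without undifferentiated replicate 1 or 2. It was 6 with scaling to the median. That scaling moved the median difference of all genes from 0.07 to -0.18 and the split of all calls from 1980 higher and 2000 lower to 1116 and 2771.

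In differentiated cholangiocytes 0 of the 33 passed against undifferentiated cells in limma, with 3 at an unadjusted p under 0.05, where 0.785% of all genes were higher and 0.597% lower. H2-Eb2 came nearest at 1.70 ± 0.64 (adjusted p = 0.27), then Creb1 at 0.48 ± 0.22 (adjusted p = 0.38). The direct comparison of the 2 differentiated groups gave 6 genes higher in hepatocytes and 2 lower, beside 6.97% and 8.41% of all genes. Socs1 was higher by 3.50 ± 0.49 (adjusted p = 0.00037) and Lgmn, an endosomal protease, by 1.43 ± 0.29 (adjusted p = 0.0043). Icosl was at least 8.49-fold higher (adjusted p = 0.0086), since it was well above background on none of the differentiated cholangiocyte arrays, and it did not pass under normexp correction. Ifngr2 (-1.17 ± 0.22, adjusted p = 0.0027) and Ifngr1 (-1.06 ± 0.20, adjusted p = 0.0032) were lower. Irf1, at 0.85 ± 0.29 (adjusted p = 0.065), did not pass, and neither did Creb1, at -0.64 ± 0.22 (adjusted p = 0.069), whose probes disagree: their mean gave 0.69.

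**Figure D3:**
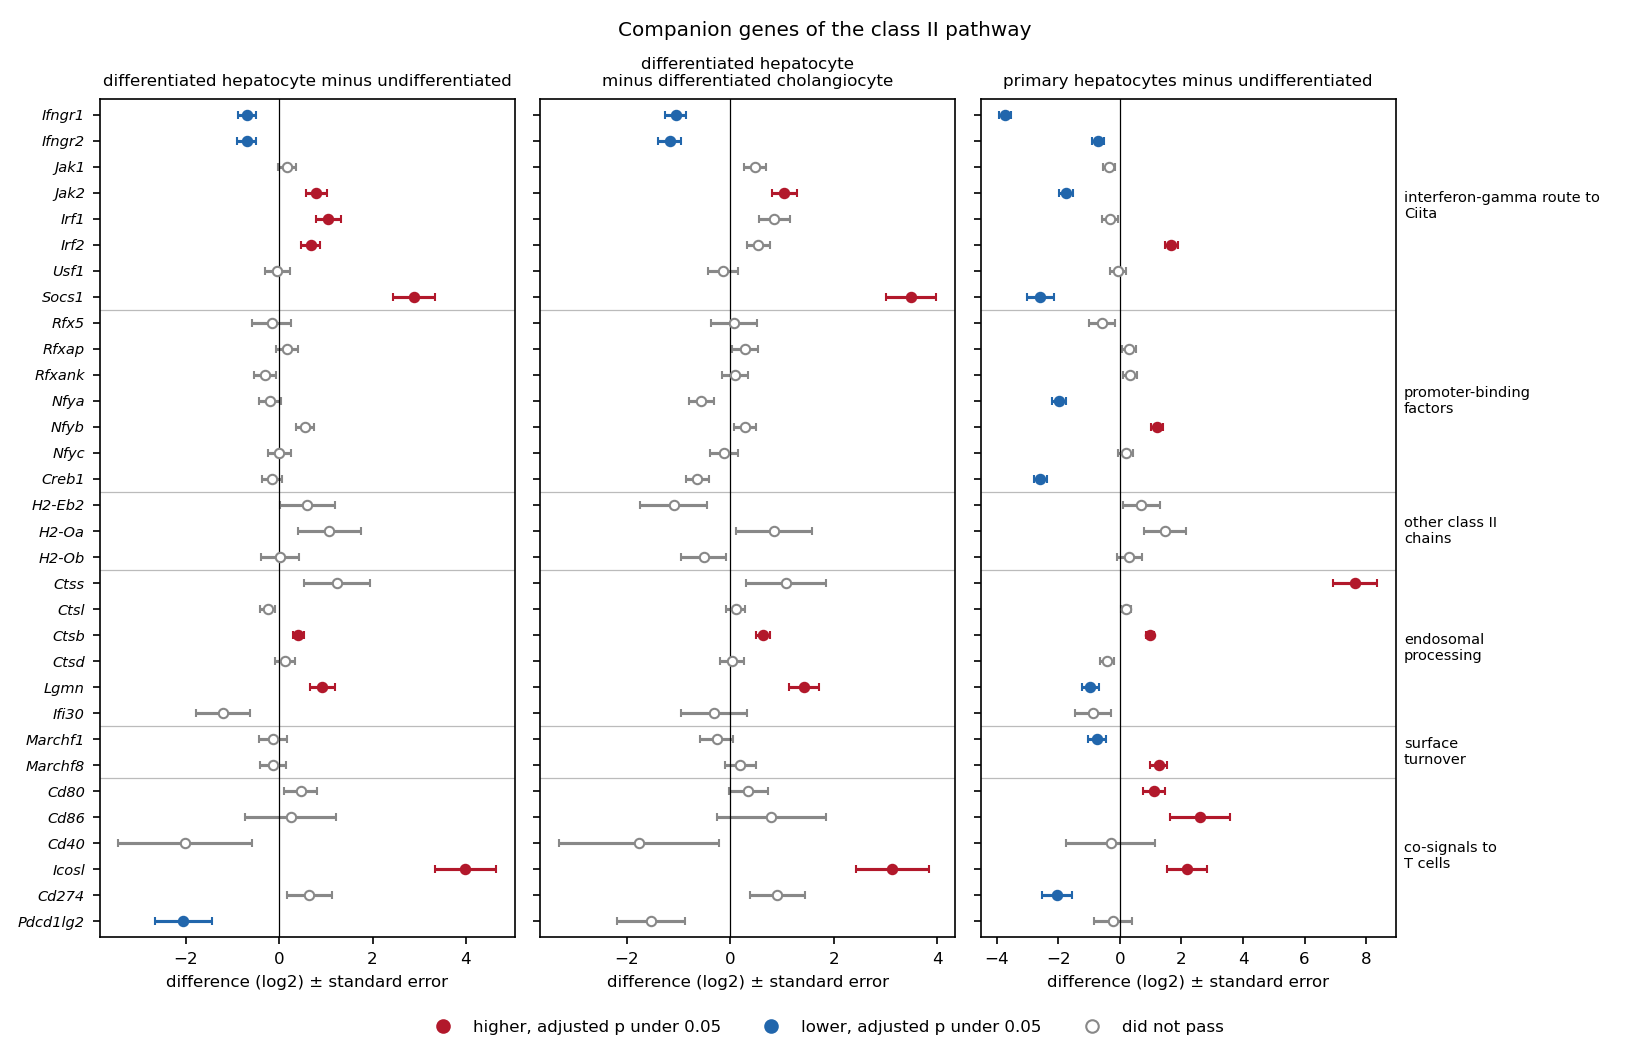
Fitted difference (log2, x axis) with its standard error for 32 of the 33 further genes of the pathway, grouped by role, in 3 comparisons; red points passed as higher, blue as lower, open points did not pass. In differentiated hepatocytes Socs1 (2.88) and Icosl (3.99) lie furthest to the right, and in primary hepatocytes Ctss does (7.63).

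Primary hepatocytes showed a different set. Against undifferentiated cells 9 of the 33 were higher and 9 lower, beside 37.6% and 26.6% of all genes. Ctss was at least 48.9-fold higher (fitted difference 7.63 ± 0.71, adjusted p = 4.4e-07), being at -1.87 ± 0.70 on 4 of 4 arrays and not well above background in undifferentiated cells. Icosl passed as higher (adjusted p = 0.0096, not with quantile normalization) but was well above background on 1 of 4 arrays in each group, so no fold is given. Cd86, a co-stimulator of professional antigen-presenting cells, was at least 2.05-fold higher (adjusted p = 0.030), a call lost without undifferentiated replicate 2, 3 or 4 or primary hepatocyte replicate 2 or 3, and with median scaling or quantile normalization. Lower were Ifngr1 (-3.72 ± 0.19, adjusted p = 9.1e-10), Creb1 (-2.58 ± 0.21, adjusted p = 8.7e-08), Socs1 (-2.58 ± 0.45, adjusted p = 0.00018) and the PD-1 ligand Cd274 (-2.03 ± 0.49, adjusted p = 0.0023). The other probe of Creb1 went the opposite way without overlap, from -5.14 ± 0.37 (SD) in undifferentiated cells to -3.76 ± 0.14 in primary hepatocytes. H2-Oa (1.48 ± 0.68, adjusted p = 0.070) and Ctsd (-0.42 ± 0.22, adjusted p = 0.11) did not pass.

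Set directly against primary hepatocytes, differentiated hepatocytes had 12 of the 33 higher and 9 lower, beside 26% and 33.7% of all genes. Socs1 (5.46 ± 0.45, adjusted p = 1.6e-07), Ifngr1 (3.03 ± 0.19, adjusted p = 8.9e-09), Cd274 (2.67 ± 0.49, adjusted p = 0.00031) and the kinase Jak2 (2.54 ± 0.23, adjusted p = 3.5e-07) were higher. Ctss (-6.39 ± 0.71, adjusted p = 3.3e-06), Pdcd1lg2 (-1.84 ± 0.61, adjusted p = 0.018) and Marchf8, a ubiquitin ligase of surface class II (-1.40 ± 0.28, adjusted p = 0.00056), were lower. Pdcd1lg2 did not pass without differentiated hepatocyte replicate 4 or primary hepatocyte replicate 1. Cd86 was at -2.37 ± 0.97 (adjusted p = 0.049) and lost its call under 11 alternatives, 6 of them single arrays left out (replicates 2, 3 and 4 of each group). Marchf1 (0.61 ± 0.30, adjusted p = 0.093) and Cd80 (-0.65 ± 0.35, adjusted p = 0.12) did not pass.

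On the cholangiocyte side 5 of the 33 were higher and 2 lower in differentiated than in primary cells, beside 11.9% and 7.64% of all genes. Cd274 (3.43 ± 0.63, adjusted p = 0.0018), Ifngr1 (2.04 ± 0.24, adjusted p = 6.8e-05) and Irf1 (1.46 ± 0.35, adjusted p = 0.0096) were higher, and H2-Eb2 was at least 2.03-fold higher (adjusted p = 0.014). Icosl was at least 15.9-fold lower (adjusted p = 0.0044) and Ifi30 was lower (-3.86 ± 0.75, adjusted p = 0.0028). With only the 2 primary arrays these calls were fragile. H2-Eb2 did not pass without either primary replicate, Icosl without replicate 3, and Irf1 without replicate 4, and the count of 7 was 4 without replicate 4 and 2 when only the 2 groups were fitted. Ctsd (-0.79 ± 0.28, adjusted p = 0.068) and Nfyb (0.63 ± 0.26, adjusted p = 0.11) did not pass.

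The primary cells differed from one another in 21 of the 33, 12 higher and 9 lower in hepatocytes, beside 28% and 21.6% of all genes. Ctss was at least 51.1-fold higher in hepatocytes (adjusted p = 5.1e-06) and Irf2 was higher by 1.94 ± 0.25 (adjusted p = 1.7e-05). Cd274 was higher by 1.67 ± 0.60 (adjusted p = 0.032), which did not hold without primary hepatocyte replicate 2 or 4 or primary cholangiocyte replicate 3. H2-Eb2 passed (adjusted p = 0.034) but was well above background on no array of either group, so it has no fold. Ifi30 (-3.85 ± 0.71, adjusted p = 0.00046), Creb1 (-2.72 ± 0.25, adjusted p = 7.3e-07, not passing with the mean of its probes), Icosl (-2.72 ± 0.80, adjusted p = 0.012, not passing without primary cholangiocyte replicate 3) and Nfya (-2.25 ± 0.28, adjusted p = 1.3e-05) were lower. Pdcd1lg2 (1.88 ± 0.75, adjusted p = 0.050) and Nfyc (0.73 ± 0.30, adjusted p = 0.058) did not pass.

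Relative to undifferentiated cells, primary cholangiocytes had 4 of the 33 higher and 4 lower, beside 8.5% and 10.6% of all genes. Icosl (4.90 ± 0.80, adjusted p = 0.00076), Ifi30 (2.97 ± 0.71, adjusted p = 0.010), Ifngr2 (0.91 ± 0.25, adjusted p = 0.020) and Ctsd (0.88 ± 0.27, adjusted p = 0.036) were higher. Cd274 (-3.69 ± 0.60, adjusted p = 0.00070), Ifngr1 (-1.67 ± 0.23, adjusted p = 0.00020), Irf1 (-1.26 ± 0.33, adjusted p = 0.016) and Jak2 (-1.20 ± 0.28, adjusted p = 0.0079) were lower. Ifi30 and Ifngr2 did not pass without primary replicate 3, nor Irf1 and Jak2 without replicate 4, and Ctsd lost its call without replicate 4 or any 1 undifferentiated array. The count of 8 was 5 without replicate 4 and 2 when only the 2 groups were fitted. Ctsl (-0.59 ± 0.20, adjusted p = 0.053) and Pdcd1lg2 (-2.09 ± 0.75, adjusted p = 0.066) did not pass.

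Class I genes, which present peptides of the cell's own proteins and respond to the same interferon, were read beside them. Of 10 listed, 7 were higher and 0 lower in differentiated hepatocytes than in undifferentiated cells, beside 7.62% and 7.7% of all genes, with a median difference of 1.16 beside 0.07 over all genes. The immunoproteasome subunits Psmb8 (3.68 ± 0.42, adjusted p = 9.2e-05) and Psmb9 (3.44 ± 0.40, adjusted p = 9.3e-05) rose. So did Nlrc5, the class I counterpart of Ciita (3.82 ± 1.05, adjusted p = 0.025), a call lost without undifferentiated replicate 3 or 4 or differentiated hepatocyte replicate 1, 3 or 4. The class I heavy chain H2-K1 was at 0.79 ± 0.44 (adjusted p = 0.28) and B2m, the light chain, at 0.13 ± 0.20 (adjusted p = 0.76). In differentiated cholangiocytes 0 of 10 passed in limma, with 2 at an unadjusted p under 0.05. In primary hepatocytes 10 of 10 were higher than in undifferentiated cells, where 37.6% of all genes were, Psmb9 by 5.08 ± 0.40 (adjusted p = 6.9e-08). Relative to primary hepatocytes, differentiated ones had 0 of 10 higher and 7 lower, beside 26% and 33.7% of all genes, H2-K1 by -2.33 ± 0.44 (adjusted p = 0.00042) and B2m by -2.16 ± 0.20 (adjusted p = 5.5e-07).

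Markers of cell types that carry class II as a rule were read on the same arrays, as fewer such cells and less RNA per cell cannot be told apart in bulk RNA. The 12 macrophage and Kupffer cell markers summed to between 1.09 and 2.20 (relative to the 75th percentile) in undifferentiated cells, 1.18 and 3.02 in differentiated hepatocytes, 2.10 and 2.95 in differentiated cholangiocytes, 7.83 and 10.0 in primary hepatocytes, and 1.54 and 2.98 in primary cholangiocytes. Csf1r was the brightest of the 12 on average in every group and supplied most of these sums. Its mean log2 levels were 0.62, 0.80, 1.20, 2.64 and 0.72 in the same group order. The 7 class II genes summed to between 0.0947 and 0.228, 0.361 and 1.70, 0.108 and 0.210, 1.09 and 3.40, and 0.380 and 3.39 in the same order. The sum of 3.39 is that of primary cholangiocyte replicate 4 and came mostly from H2-DMb1, at 1.43 there and -9.42 on the other primary cholangiocyte array. In differentiated hepatocytes 0 of the 12 were higher than in undifferentiated cells and 1 lower in limma, beside 7.62% and 7.7% of all genes (Cd68, -1.92 ± 0.33, adjusted p = 0.0017). The Kupffer cell lectin Clec4f and the complement genes C1qa and C1qc were well above background on 0 of 4 differentiated hepatocyte arrays, although Vsig4, a Kupffer cell receptor, was on 3 of 4, at -6.96 ± 1.34. The sum of the list for all leukocytes moved with the class II genes, but not each gene in it. Its 4 measurable genes of 5 summed to between 0.0620 and 0.0774 in undifferentiated cells, 0.153 and 0.193 in differentiated hepatocytes, and 0.0569 and 0.0860 in differentiated cholangiocytes. In limma 1 of the 4 was higher and 0 lower in differentiated hepatocytes than in undifferentiated cells, beside 7.62% and 7.7% of all genes. Against differentiated cholangiocytes it was also 1 and 0, beside 6.97% and 8.41%. Coro1a was at -5.47 in differentiated hepatocytes and -4.96 in undifferentiated cells. Laptm5 was at -8.24 in both, well above background on 0 arrays of either. Ptprc (CD45) rose by 2.63 ± 0.53 (adjusted p = 0.0046) in differentiated hepatocytes, from -6.13 ± 0.38 to -3.51 ± 0.57, and Cd52, a small surface antigen of lymphocytes, was at least 7.73-fold above differentiated cholangiocytes (adjusted p = 0.00083), where it was well above background on 0 of 3 arrays. The B cell sums were 0.0336 to 0.0555 in undifferentiated cells and 0.0519 to 0.113 in differentiated hepatocytes. The dendritic cell sums were 0.0769 to 0.126 and 0.0696 to 0.113. In limma 0 of 4 measurable genes passed between these groups in either list, beside 7.62% higher and 7.7% lower of all genes. At an unadjusted p under 0.05 were 1 B cell and 0 dendritic cell genes. The part of all such cells in the class II levels was not tested.

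In primary hepatocytes most of these markers were higher than in undifferentiated cells, in a comparison where 37.6% of all genes were higher and 26.6% lower. Of the 12 macrophage and Kupffer cell markers 11 were higher and 1, Cd68, was lower and well above background on 0 of 4 primary hepatocyte arrays. Clec4f was at -2.30 ± 0.76 (a difference of 5.90 ± 0.46, adjusted p = 6.5e-08), being well above background on 1 of 4 undifferentiated arrays. C1qc, at -2.69 ± 0.94, was at least 27.6-fold higher (adjusted p = 4.7e-09). Of 7 liver endothelial markers 6 were higher and 0 lower, and they summed to between 11.4 and 14.0 against 1.43 to 2.51 in undifferentiated cells. B cell markers (3 of 4 measurable higher, of 7 listed), dendritic cell markers (4 of 4, of 7), T and NK cell markers (4 of 4, of 7) and the list for all leukocytes (3 of 4, of 5) were also higher, though Pax5 was well above background on 0 of 4 arrays and Clec9a on 1 of 4. The median difference of the dendritic cell markers, 1.36, is of the size of the gap between -9.26 and -7.95 at the background probe H2-Ea-ps. Of these 4 markers 1 was higher without overlap, beside 33.8% of all genes. The part of all these cell types in the class II levels of primary hepatocytes was not tested. Among the 4 primary hepatocyte arrays the class II sums were 1.09, 3.40, 2.10 and 1.49 in replicates 1 to 4. The macrophage sums were 10.0, 7.89, 7.83 and 9.36, highest where class II was lowest. So were the B cell sums (0.323, 0.212, 0.110 and 0.195) and the dendritic cell sums (0.371, 0.270, 0.133 and 0.244). The sums for all leukocytes were 0.170, 0.334, 0.299 and 0.182, in the same order as class II, and the T and NK cell sums were 43.5, 76.8, 39.9 and 51.6, highest on the same array as class II. Most of the T and NK cell sums came from the probe of Cd4, at 5.56 ± 0.45 in primary hepatocytes.

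**Figure D4:**
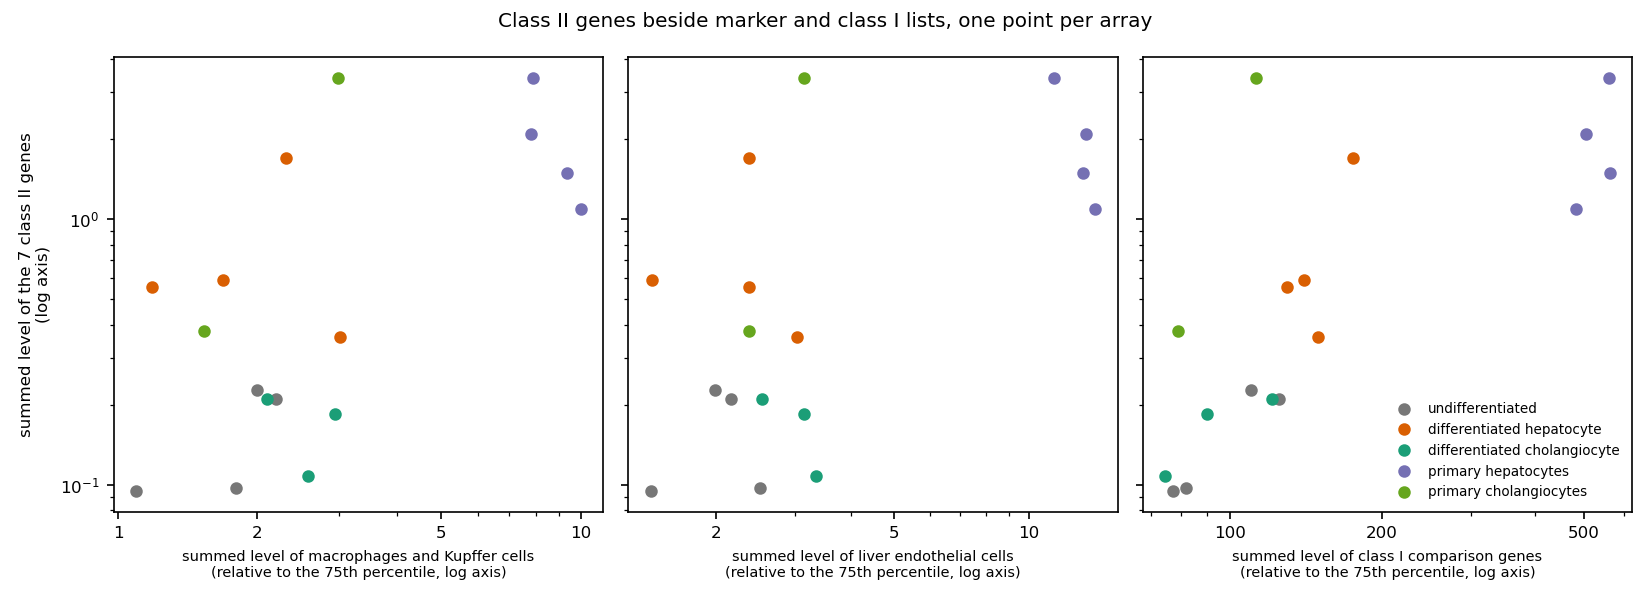
Summed level of the 7 class II genes (y axis, log) against the summed level of 12 macrophage and Kupffer cell markers, 7 liver endothelial markers and 10 class I genes (x axes, log), 1 point per array. Differentiated hepatocytes lie above undifferentiated cells in class II at a similar macrophage sum (1.18 to 3.02 against 1.09 to 2.20), and primary hepatocytes stand apart on all 3 x axes. The macrophage sums come mostly from Csf1r. The sum for all leukocytes, not drawn, was 0.153 to 0.193 in differentiated hepatocytes against 0.0620 to 0.0774 in undifferentiated cells. The part of such cells in class II was not tested. The higher class II sum of the primary cholangiocytes (3.39) comes mostly from H2-DMb1.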

How the data were processed

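Total RNA was amplified (WT-Ovation Pico), labelled with Cy3 and hybridised to 17 one-colour Agilent arrays, per the labels. The scanner files hold deposited intensity values made with Feature Extraction (10.5.1.1 per the file headers, 9.53 per the submitters' processing notes), whose background correction is the scanner software's. The authors' deposited table gives signed fold changes (named a score here, since a ratio below 1 is written as a negative fold) and a false discovery rate as a percent for each probe and comparison; how it was normalized is not given in the sources used here, and it served as an alternative.

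The processed intensity was log2-transformed and the array's 75th percentile over non-control probes subtracted. Of 39294 probes, 32305 were well above background on at least 2 arrays. The probe with the highest mean stood for a gene, which left 25977 genes. Arrays gave 23816 to 29152 probes well above background, and the number of arrays limits the precision. Group means of the 5 groups were fitted on all 17 arrays in limma 3.58.1 (lmFit, eBayes; R 4.3.3) for 8 comparisons, with Benjamini-Hochberg adjustment over all genes and a threshold of 0.05. "At least" folds set the brighter group's mean against the higher of the lowest signal well above background and the dim probe's own signal. The procedure was tested on simulated data.

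The 7 genes, the lists and the rules were chosen with earlier results of these data known. Named in each comparison were, of the 33 further class II genes, at most the 4 largest that passed in each direction, plus the 2 nearest the threshold among those that failed; of the class I genes up to 3 by size, and others are named beyond the rule after their values were seen (H2-K1, B2m, H2-Ob and markers); and the 8 genes most like the 7 in pattern. Counts cover whole lists, of which 2 genes are not reported here by name. Gene symbols were updated through RefSeq accessions where these matched (26330 probes).

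Alternatives were median scaling, quantile normalization, normexp background, 2 other filters, the mean of a gene's probes, slide as a fixed or random block, the replicate number as a block, fitting only the 2 groups compared, the authors' table, and leaving out each array. Within-slide differences, differences within replicate pairs, counts kept apart by direction and the interaction of cultured against primary cells were added after seeing the data. Same-numbered arrays of differentiated cholangiocytes and undifferentiated cells deviated together (r = 0.38, 0.28 and 0.32 over all genes). Arrays of unlike number were not compared, so whether the numbers pair these samples is not settled. The fit with the replicate block also called 0 of the 33 genes in this comparison. Figures were drawn with matplotlib 3.10.9.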

Additional observations from a re-analysis of the deposited data

Results flagged for a closer look

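A pair of arrays stood apart from the other 3 of their group, among 24 groups of 4 arrays examined; chance alone gives about 1 in 20. The other probe of H2-Ab1 read -4.88 in undifferentiated replicate 3, while the remaining undifferentiated arrays read between -9.73 and -8.96 and were not well above background. The first probe was also highest there (-4.73). H2-DMa read -5.14 in differentiated hepatocyte replicate 3, below -4.03, -3.87 and -3.82 on the others. The same array had the lowest H2-Eb1, H2-DMb1 and Cd74 of its group.

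The difference of cultured from primary cells was not the same on the hepatocyte and on the cholangiocyte side for 14 of the 33 further class II genes (limma interaction, Benjamini-Hochberg adjusted over all genes, chosen after seeing the data), of which 10 fall under the naming rule. Each value is the difference of cultured from primary cells on the hepatocyte side minus that on the cholangiocyte side. It was 4.63 for Socs1 (5.46 against 0.83, adjusted p = 0.00021), 1.59 for Jak2 (2.54 against 0.95, adjusted p = 0.0038) and 0.99 for Ifngr1 (3.03 against 2.04, adjusted p = 0.021). For Ifi30 it was 3.53 (-0.33 against -3.86, adjusted p = 0.0096), the change lying on the cholangiocyte side. Signs were opposite for Icosl (5.85, from 1.81 against -4.04, adjusted p = 0.00066), Ctsd (1.33, from 0.54 against -0.79, adjusted p = 0.0098), Pdcd1lg2 (-3.42, from -1.84 against 1.57, adjusted p = 0.015) and Nfyb (-1.28, from -0.66 against 0.63, adjusted p = 0.0063). Ctss gave -6.62 (-6.39 against 0.22, adjusted p = 0.00049) and H2-Eb2 -3.10 (-0.092 against 3.01, adjusted p = 0.022). Icosl in differentiated cholangiocytes, Ctss in both cholangiocyte groups and H2-Eb2 in both primary groups were well above background on no array, so their sizes are not exact. The cholangiocyte side rests on 2 primary arrays.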

How the results depend on the processing

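The count of further class II genes that passed between differentiated hepatocytes and undifferentiated cells was 11, and 6 with median scaling, with slide as a fixed block and when only the 2 groups were fitted; leaving out 1 array gave 4 to 8. Between differentiated and primary cholangiocytes the count was 7, and 2 with only the 2 groups; leaving out 1 array gave 4 to 7. Between primary cholangiocytes and undifferentiated cells it was 8, and 2 with only the 2 groups; leaving out 1 array gave 5 to 8. Creb1, between the differentiated groups, turned from -0.64 to 0.69 with the mean of its probes. The other counts stayed within 1.5 times under the alternatives run. Over all counts, those just named included, and the median difference of the 7 genes, 148 values stayed and 14 moved. That median, between differentiated hepatocytes and undifferentiated cells, was judged by the spread within the groups. Of the recomputed differences of the 7 genes, 947 moved by less than the spread within the groups and 54 by more, 22 of the latter under normexp correction. Of the recomputed results of named further class II and class I genes, 122 lost a call, 49 gained a call and 1 changed sign. The remaining 1450 were unchanged, which includes genes that passed neither before nor after. With the replicate block, differentiated hepatocytes against undifferentiated cells gave 9 genes and the block changed no other count by over 1.5 times. Of 23 same-numbered pairs 5 correlated above 0.1 (range -0.23 to 0.52). The highest, 0.52, was replicate 4 of differentiated hepatocytes with undifferentiated cells, whose replicates 1 to 3 gave -0.03, -0.07 and -0.15. Replicate 3 of the 2 primary groups gave 0.14 and replicate 4 gave 0.05. Whether same-numbered arrays share more than a number is therefore not settled. Dim genes near background (H2-Aa, Ciita) carry little precision.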
